A study of Homo sapiens with 6 samples.

Results

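Long noncoding RNAs (lncRNAs) that cells keep at high level or that carry microRNAs in their exons were examined as a group of 8 genes: MALAT1, NEAT1, NORAD, TUG1, OIP5-AS1, KCNQ1OT1, MIR22HG and MIR17HG. They were taken by gene name from the 23026 genes of the deposited normalized table, and the list was chosen with earlier results of these data known. Their RNA was measured by stranded poly(A)-selected RNA-seq in T98G, a human glioblastoma cell line. T98G cells in 3 libraries (1A, 1B and 1C) had received a lentivirus with a control hairpin (shControl), and in 3 further libraries with the same letters a lentivirus with a hairpin against the protein kinase DYRK1A (shDYRK1A). Cells of both groups were selected with puromycin, and equal numbers received the same amount of Drosophila Kc167 cells, whose reads set the scale between libraries. The labels name 1 cell line and 1 virus per group, and they do not say whether the libraries came from separate infections, so the p-values measure the spread between these libraries, which may be technical.

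The hairpin's target was lower in each shDYRK1A library. DYRK1A had 2227, 2234 and 1895 normalized counts in the shControl libraries (in the order 1A, 1B, 1C, kept throughout) and 1482, 1056 and 1285 in those of shDYRK1A, a log2 fold change of -0.73 ± 0.147 (SE, adjusted p = 5.33e-06, edgeR). On this spike-in scale the median over all tested genes was -0.40. Scaled to the human genes (TMM, explained below) DYRK1A stood at -0.34. Per 1000000 human counts it held 46.3, 46.7 and 47.2 in shControl and 40.4, 33.8 and 38.6 in shDYRK1A. Counts to human genes ranged from 33708297 in shDYRK1A 1B to 42154438 in shControl 1B. Of 6 glioma markers, VIM and CD44 were abundant (VIM at 1529.6 to 1974.7 counts per 1000000 human counts, CPM, and CD44 at 1401 to 1592), NES and OLIG2 stood between 1.06 and 2.02 CPM, and GFAP and SOX2 had at most 4 counts in a library. The 6 markers of immune, epithelial, endothelial and neuronal cells together held 3.06 to 3.98 CPM in shControl and 5.52 to 6.14 CPM in shDYRK1A, with CD3E at 0 throughout, and their part in the results was not tested.

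As background, lncRNAs act as RNA rather than through a protein, and where they reside in the cell sets what they can bind. NEAT1 is the scaffold of paraspeckles, nuclear bodies that form around it, and MALAT1 gathers in nuclear speckles beside splicing factors. NORAD is mostly cytoplasmic and binds Pumilio proteins, which repress and destabilise messenger RNAs, while OIP5-AS1 binds the RNA-binding protein HuR and microRNAs, and TUG1 is found in both compartments. KCNQ1OT1 silences imprinted neighbours from the paternal chromosome, and MIR22HG and MIR17HG are the host transcripts of miR-22 and of a microRNA cluster that is often amplified in cancer. The RNA here came from whole cells, so compartment was not measured.

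The name "abundant" fitted only some of the members. Among 8189 lncRNA genes with any count, ranked by mean normalized count over the 6 libraries, NEAT1 was number 1, MALAT1 number 3, NORAD number 4, TUG1 number 5 and OIP5-AS1 number 14. MIR22HG was number 114, KCNQ1OT1 number 391 and MIR17HG number 888. This rank is not corrected for length and favours long genes. Per kilobase of annotated exon, the scale on which the members are put in order here, NORAD stood highest in shControl with 2469 ± 286 normalized counts per kb (SD, n = 3). NEAT1 (1679 ± 192) and MALAT1 (1652 ± 183) followed, and the ranges of this pair overlapped. TUG1 (992 ± 90.6), OIP5-AS1 (273 ± 28.3), MIR22HG (201 ± 34.5), MIR17HG (21.4 ± 2.63) and KCNQ1OT1 (2.33 ± 0.619) came next, each without overlap of its neighbours in the order. The length used is the union of all annotated exons, 22767 bases for NEAT1 and 91667 for KCNQ1OT1, and a gene of which the cells make mainly a short form is understated by it.

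In shDYRK1A the order per kb changed at a single place. MIR22HG (187 ± 12.9 normalized counts per kb, SD, n = 3) stood above OIP5-AS1 (137 ± 18.6), whereas in shControl OIP5-AS1 (241 to 294) had stood above MIR22HG (163 to 230), and neither pair of ranges overlapped. NORAD kept the highest mean at 1614 ± 246, but its range in shDYRK1A overlapped that of NEAT1 at 1271 ± 266. NEAT1 in turn overlapped MALAT1 at 1137 ± 183. The exchange of OIP5-AS1 and MIR22HG rests on exon lengths of 12673 and 2986 bases. With the lengths of their longest transcripts, 8829 and 2626 bases, the shDYRK1A ranges of this pair would overlap.

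**Figure D1:**
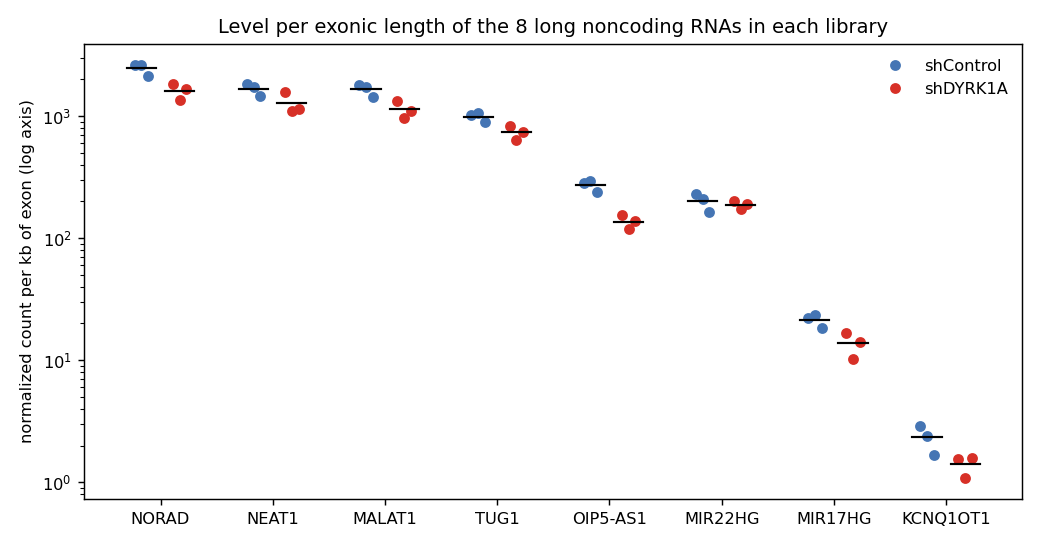
Normalized counts per kb of exon (log axis) for the 8 lncRNAs, with 1 point per library, blue for shControl and red for shDYRK1A, and a bar at each group mean (n = 3). The members span from about 2469 per kb for NORAD to 2.33 per kb for KCNQ1OT1 in shControl, and OIP5-AS1 and MIR22HG change places in shDYRK1A.

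On the spike-in scale, 5 of the 6 members that passed the expression filter fell in shDYRK1A, and none rose. OIP5-AS1 lost the most, from 3463 ± 359 to 1731 ± 235 normalized counts (SD, n = 3), followed by NORAD at 65.4% of its shControl mean, MALAT1 at 68.8%, TUG1 at 74.2% and NEAT1 at 75.7%, whereas MIR22HG did not pass the test at 93.4%. The filter was a mean above 10 normalized CPM, which KCNQ1OT1 and MIR17HG did not reach. The test was edgeR's quasi-likelihood test with Benjamini-Hochberg adjustment over the 9697 genes that passed. Of these genes 63.4% were lower at an adjusted p below 0.05, so that a fall was the common result and the count of 5 of 6 is to be read against it. All members share the same spike-in factor in each library, so an error in these factors moves them together. Their p-values on this scale are therefore not separate results. The SE of OIP5-AS1 was 0.143 on this scale and 0.0492 when scaled to the human genes. Only OIP5-AS1 (1 of 6) also passed the fold threshold of 0.7 on the log2 scale, as did 14.3% of all tested genes in the direction of a fall. The median log2 fold change was -0.48 over the 6 members and -0.40 over all tested genes. The T98G cell numbers were equal when the fly cells were added, per the labels, but within a bulk library fewer cells that express an RNA and less of it per cell cannot be told apart.

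NEAT1 (ENSG00000245532, GRCh38 chr11:65422774-65445540, plus strand, a lincRNA of GENCODE v29) had 41674, 39682 and 33286 normalized counts in shControl and 35912, 25071 and 25828 in shDYRK1A. The groups overlapped, because shDYRK1A 1A lay above shControl 1C. Its log2 fold change was -0.40 ± 0.127 (SE, adjusted p = 0.0039, edgeR). It did not pass an adjusted p of 0.05 without shControl 1A (-0.33, adjusted p = 0.0556), without shDYRK1A 1B (-0.31, adjusted p = 0.0713) or without shDYRK1A 1C (-0.33, adjusted p = 0.091), nor with DESeq2 on all libraries (-0.40, adjusted p = 0.061). NEAT1 lay at the median of all tested genes.

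MALAT1 (ENSG00000251562, GRCh38 chr11:65497688-65506516, plus strand, lincRNA) lies downstream of NEAT1 on the same strand. It had 15729, 15287 and 12733 normalized counts in shControl and 11772, 8575 and 9766 in shDYRK1A, and the groups did not overlap. The log2 fold change was -0.54 ± 0.132 (SE, adjusted p = 0.00019, edgeR), with adjusted p between 1.51e-07 and 0.0107 when any 1 library was left out. In both nuclear RNAs, and in NORAD, TUG1 and OIP5-AS1, shDYRK1A 1B was the lowest library and shDYRK1A 1A the highest of its group. The 3′ end of MALAT1 and of the long NEAT1 form is a triple helix without a poly(A) tail, and how much of either RNA the poly(A) selection captured was not tested.

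TUG1 (ENSG00000253352, GRCh38 chr22:30969245-30979395, plus strand, a lncRNA with a bidirectional promoter shared with MORC2) had 10439, 10749 and 9024 normalized counts in shControl and 8427, 6455 and 7534 in shDYRK1A. The groups did not overlap, and the log2 fold change was -0.43 ± 0.133 (SE, adjusted p = 0.00307, edgeR), with adjusted p from 4.27e-05 to 0.0434 over the 6 fits with a library left out. MORC2 itself, transcribed the other way, did not pass the test (log2 fold change -0.16 ± 0.141, adjusted p = 0.311).

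NORAD (ENSG00000260032, GRCh38 chr20:36045622-36050960, minus strand, a single exon of 5339 bases) had 14041, 14086 and 11423 normalized counts in shControl and 9770, 7191 and 8892 in shDYRK1A. The groups did not overlap, and the log2 fold change was -0.61 ± 0.133 (SE, adjusted p = 2.37e-05, edgeR). Leaving out shControl 1C or shDYRK1A 1A moved it to -0.71, past the fold threshold, and leaving out shDYRK1A 1B moved it to -0.50. NORAD is known for repeats that hold Pumilio elements, which were read from its GENCODE transcript. The motif searched was TGTANATA on the sense strand, with N any base, and NORAD held 15 matches, or 2.81 per kb, of which 10 read TGTATATA, 4 read TGTAAATA and 1 read TGTACATA. By comparison 35.39% of the longest transcripts of 9693 tested genes held at least 1 match, LNPEP alone held more than NORAD, with 17, and 1 tested gene, MRPL50, had a higher density. Among the members NEAT1 held 6 matches in 22743 bases, KCNQ1OT1 9, TUG1 and MIR17HG 2 each, OIP5-AS1 1, and MALAT1 and MIR22HG 0. A match is a description of the letters and not a measured binding site.

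Windows of 24 bases around 6 of the NORAD matches, written 5′ to 3′ as DNA with the match in capitals, show the flanks that recur between repeats, with ctactg before and gacaa after in some and a run of t after in others (GRCh38, minus strand):
NORAD match 2, chr20:36049806-36049829: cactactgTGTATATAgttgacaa
NORAD match 11, chr20:36047974-36047997: ccctactgTGTATATAgcggacaa
NORAD match 14, chr20:36047353-36047376: tgctactgTGTATATAatggaaaa
NORAD match 3, chr20:36049705-36049728: tcacatttTGTAAATAcctttttg
NORAD match 6, chr20:36049121-36049144: taccacttTGTAAATAtctttttg
NORAD match 15, chr20:36046347-36046370: agcctattTGTAAATAcctttgtt

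**Figure D2:**
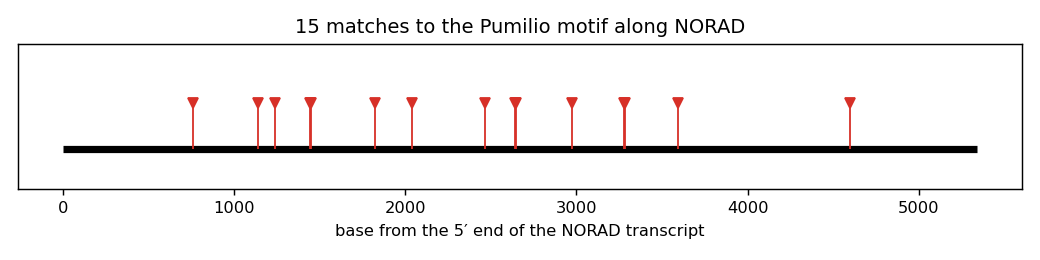
Positions of the 15 TGTANATA matches (triangles) along the NORAD transcript, in bases from its 5′ end. They run from base 761 to base 4599 and leave the last stretch of the 5339-base transcript empty, and 3 pairs lie 9 bases apart and so appear as single triangles.

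Messenger RNAs of proteins that NORAD binds were measured in the same libraries. RBMX, a nuclear RNA-binding protein, fell, with a log2 fold change of -0.63 ± 0.133 (SE, adjusted p = 1.25e-05, edgeR), a size near that of NORAD, and it was also lower at -0.23 (adjusted p = 0.000458) under scaling to the human genes (TMM, explained with that comparison). PUM2, a Pumilio protein, fell by a size near the median of all genes, at -0.46 ± 0.143 (adjusted p = 0.00323), and did not pass the test under TMM scaling (-0.06, adjusted p = 0.379).

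OIP5-AS1 (ENSG00000247556, GRCh38 chr15:41283990-41309737, plus strand, 10 exon blocks) was the member that changed most. It had 3606, 3728 and 3054 normalized counts in shControl and 1962, 1492 and 1740 in shDYRK1A, with a wide gap between the groups. The log2 fold change was -1.0 ± 0.143 (SE, 95% interval -1.28 to -0.72, adjusted p = 1.1e-10, edgeR), and 3.1% of tested genes had a lower one. It stayed past both thresholds with any 1 library left out, from -0.90 without shDYRK1A 1B to -1.10 without shDYRK1A 1A. OIP5, the protein-coding gene at which OIP5-AS1 starts on the opposite strand and a factor that loads the centromeric histone, fell less, at -0.55 ± 0.161 (adjusted p = 0.0016). The exons of the pair share 470 bases, 3.71% of the exon length of OIP5-AS1. Among 6 listed partners of OIP5-AS1, HuR and proteins of microRNA silencing, 4 were lower and 0 higher, with a median of -0.46, from AGO3 at -0.61 ± 0.154 (adjusted p = 0.000287) to TNRC6A at -0.18 ± 0.139 (adjusted p = 0.231). Over all tested genes 63.4% were lower, with a median of -0.40. Under TMM scaling 3 of the 6 were lower and 2 higher, beside 28.6% and 27.3% of all genes. ELAVL1, the gene of HuR, stood at -0.52 ± 0.138 (adjusted p = 0.000628).

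MIR22HG (ENSG00000186594, GRCh38 chr17:1711493-1717174, minus strand) was the tested member whose fall was not shown. It had 687, 625 and 486 normalized counts in shControl and 596, 520 and 563 in shDYRK1A, so that all 3 shDYRK1A libraries lay inside the range of shControl. The log2 fold change was -0.10 ± 0.162 (SE, 95% interval -0.41 to 0.22, adjusted p = 0.599, edgeR). That interval holds both no change and the median of all genes, and without shControl 1A the value was 0.01. WDR81, the neighbour transcribed the other way, stood at -0.32 ± 0.152 (adjusted p = 0.0514).

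MIR17HG (ENSG00000215417, GRCh38 chr13:91347820-91354579, plus strand) was counted at a low level, with 39 to 72 reads per library, and was under the filter. It had 77.9, 81.7 and 64.3 normalized counts in shControl and 58.6, 36.1 and 49.4 in shDYRK1A. The groups did not overlap, and the log2 ratio of the means was -0.64, with a two-sided exact permutation p of 0.1, the smallest that 3 libraries against 3 can give. Counting error is wide at this depth: the 39 reads of shDYRK1A 1B correspond to 1.16 CPM with a 95% Wilson interval of 0.846 to 1.58, which covers counting error only. Under edgeR's more permissive filterByExpr, which kept 17530 genes, the log2 fold change was -0.63 ± 0.267 (adjusted p = 0.0409), and with no filter beyond 1 count the adjusted p was 0.0747. The exons of 6 microRNA genes cover 13.55% of its exon length on the same strand, and the files list 0 counts for each of the 6. Reads over 2 features can be set aside as ambiguous, a class that held 3.42 to 3.59% of reads, and how many of those lay in MIR17HG was not tested. E2F1, E2F3 and MYC, transcription factors known to drive MIR17HG, all fell (3 of 3, median -0.86, where 63.4% of all tested genes were lower), with E2F1 at -0.94 ± 0.14 (adjusted p = 6.81e-10) and E2F3 at -0.86 ± 0.151 (adjusted p = 1.55e-07) past the fold threshold and MYC at -0.53 ± 0.14 (adjusted p = 0.000556), and all 3 were lower under TMM scaling too, beside 28.6% of all genes.

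The mature microRNAs made from both hosts are too short for these libraries and were not measured, and RefSeq lists 14 of them (GRCh38.p14). Some of their sequences are shown because MIR22HG and MIR17HG host them. The host counts did not measure the hairpins or the mature forms. The seed, bases 2 to 8, which pairs with target messenger RNAs, is in capitals. The 2 arms of miR-22 have seeds of their own:
miR-22-3p: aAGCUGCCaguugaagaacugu
miR-22-5p: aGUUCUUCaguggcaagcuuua

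The 12 mature microRNAs of MIR17HG come from 6 hairpins and carry 9 seeds. MiR-17-5p and miR-20a-5p share a seed, and miR-18a-5p carries a closely related one. MiR-19a-3p and miR-19b-3p share another, and miR-92a-3p has a seed that the cluster holds nowhere else:
miR-17-5p: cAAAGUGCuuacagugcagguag
miR-20a-5p: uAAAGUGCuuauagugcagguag
miR-18a-5p: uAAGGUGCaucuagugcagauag
miR-19a-3p: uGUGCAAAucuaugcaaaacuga
miR-19b-3p: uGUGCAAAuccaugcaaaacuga
miR-92a-3p: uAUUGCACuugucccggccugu

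KCNQ1OT1 (ENSG00000269821, GRCh38 chr11:2608328-2699994, minus strand, a single annotated exon antisense within the gene KCNQ1) was the lowest member per kb. It had 267, 221 and 154 normalized counts in shControl and 143, 99.1 and 145 in shDYRK1A. The groups did not overlap, although shControl 1C and shDYRK1A 1C came close. The log2 ratio of the means was -0.73, with the smallest possible exact permutation p of 0.1, and with filterByExpr the log2 fold change was -0.72 ± 0.202 (adjusted p = 0.0015, edgeR). Under that filter 7 of the 8 members were lower at an adjusted p below 0.05, beside 44.2% of the 17530 genes, and 2, OIP5-AS1 and KCNQ1OT1, also passed the fold threshold, beside 14.2%. The ratio of KCNQ1OT1 ranged from -0.54 without shControl 1A to -0.92 without shControl 1C. KCNQ1, the potassium channel gene it overlaps, had 4 counts in all 6 libraries together, and CDKN1C, an imprinted inhibitor of the cell cycle, was under the filter with 216 ± 49.3 normalized counts in shControl and 177 ± 18.3 in shDYRK1A (SD, n = 3). Of the 8 listed genes of the domain 6 were tested, of which 3 were lower and 0 higher, beside 63.4% lower over all tested genes. They ran from OSBPL5 at -0.65 ± 0.148 (adjusted p = 6.3e-05) to SLC22A18 at -0.09 ± 0.153 (adjusted p = 0.599). Under TMM scaling 1 was lower and 3 higher, beside 28.6% and 27.3% of all genes.

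Whether each member changed relative to other human RNAs is a separate question from its level per spiked-in cell. It was addressed by TMM scaling, which sets the bulk of human genes to no change and moved the median log2 fold change of all genes from -0.40 to 0.0019. OIP5-AS1 remained lower at -0.60 ± 0.0492 (adjusted p = 2.15e-06, edgeR), NORAD at -0.21 ± 0.0502 (adjusted p = 0.00375) and MALAT1 at -0.14 ± 0.0498 (adjusted p = 0.0317). TUG1 at -0.03 ± 0.0425 (adjusted p = 0.559, approximate 95% interval -0.11 to 0.05) and NEAT1 at -0.0044 ± 0.0723 (adjusted p = 0.964, approximate 95% interval -0.15 to 0.14) did not pass the test, and MIR22HG turned to a rise of 0.32 ± 0.0781 (adjusted p = 0.00495). Thus 3 of 6 tested members were lower, beside 28.6% of all genes, and 1 of 6 was higher, beside 27.3%, and none passed the fold threshold. Differences in fold change between members were not tested.

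In CPM, which need no spike-in, OIP5-AS1, NORAD and MIR22HG went the same way as under TMM scaling, whereas the groups of MALAT1 overlapped. OIP5-AS1 held 75, 77.9 and 76.1 CPM in shControl and 53.5, 47.8 and 52.2 in shDYRK1A, and MIR22HG 14.3, 13.1 and 12.1 against 16.3, 16.6 and 16.9. Both pairs of groups were separate, in opposite directions. NORAD held 292, 294 and 285 CPM against 267, 230 and 267, also without overlap. MALAT1 ranged from 317 to 327 CPM in shControl and from 275 to 321 in shDYRK1A, TUG1 from 217 to 225 and from 207 to 230, and NEAT1 from 830 to 867 and from 775 to 980, each with overlap. The NEAT1 value of 980 came from shDYRK1A 1A, the highest of all 6 libraries. KCNQ1OT1 overlapped as well, at 3.83 to 5.54 CPM in shControl and 3.17 to 4.35 in shDYRK1A. MIR17HG held 1.62, 1.71 and 1.6 CPM against 1.6, 1.16 and 1.48, with shControl 1C and shDYRK1A 1A nearly level. On the spike-in scale 4 of the 6 tested members (MALAT1, NORAD, TUG1 and OIP5-AS1) had every shDYRK1A library below every shControl library, as had 63.6% of all tested genes.

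**Figure D3:**
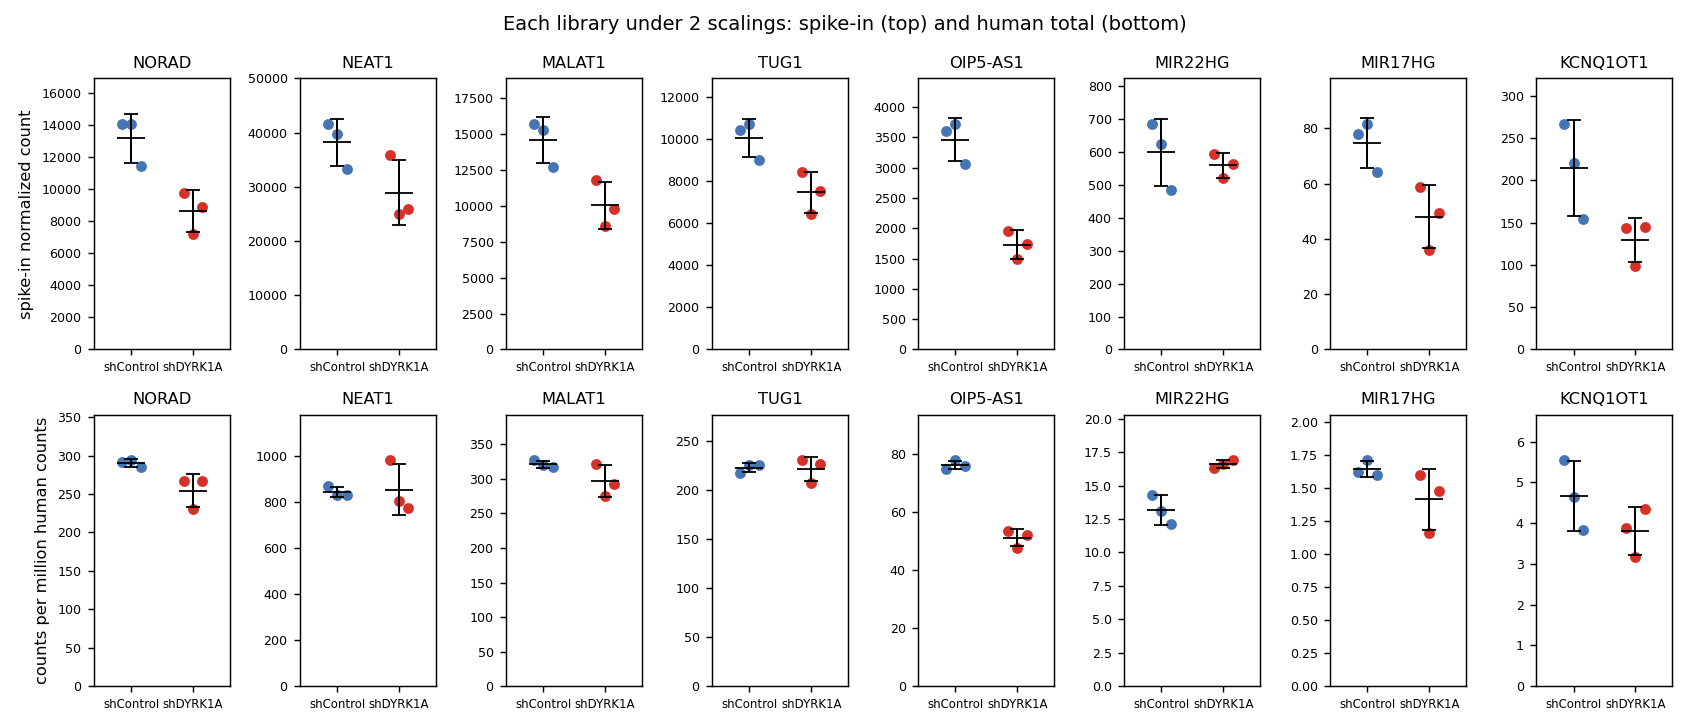
Spike-in normalized counts (top row) and CPM (bottom row) of the 8 lncRNAs, with 1 point per library and the mean ± SD of each group of 3, every axis from 0. OIP5-AS1 is separate between the groups in both rows, NEAT1 and TUG1 overlap in CPM, and MIR22HG is separate only in CPM, where shDYRK1A is higher.

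**Figure D4:**
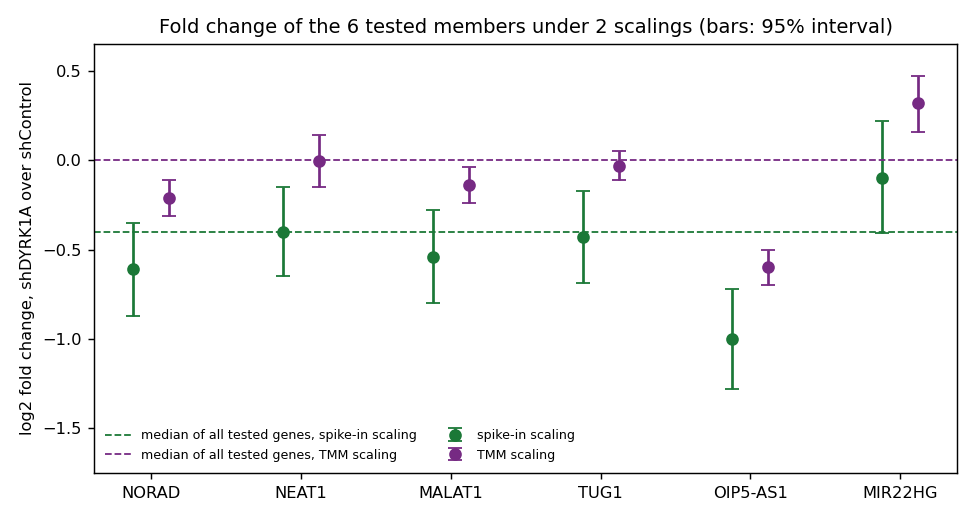
Log2 fold change (shDYRK1A over shControl) of the 6 tested members with spike-in scaling (green) and TMM scaling (purple), bars giving the 95% interval and dashed lines the median of all tested genes. OIP5-AS1 is below both medians, at -1.0 and -0.60, and MIR22HG above both, at -0.10 and 0.32.

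The members together held 0.18, 0.177 and 0.175% of human counts in shControl and 0.187, 0.158 and 0.164% in shDYRK1A. The groups overlapped, and the difference of -0.00744 percentage points had an exact permutation p of 0.4. NEAT1 made up about as much as all others together, 47.5 ± 0.6% of the members' counts in shControl and 50.1 ± 2.52% in shDYRK1A (SD, n = 3), and without it the shares were 0.093 ± 0.000799% and 0.0845 ± 0.00581% (exact permutation p = 0.1). OIP5-AS1 went from 4.31 ± 0.128% of the members' counts to 3.02 ± 0.166%, and MIR22HG from 0.742 ± 0.0509% to 0.985 ± 0.101%, both without overlap. All lncRNA genes together held 0.999 to 1.02% of human counts in shControl and 1.08 to 1.16% in shDYRK1A, without overlap between the groups (exact permutation p = 0.1), and the members' part of the lncRNA counts went from 17.5 ± 0.0859% to 15.2 ± 0.864%.

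Across the 178 lncRNA genes tested, 36.0% were lower and 4.49% higher on the spike-in scale, with a median log2 fold change of -0.24, whereas of 9379 protein-coding genes 64.1% were lower and 1.02% higher, with a median of -0.41. Under TMM scaling the medians were 0.16 and -0.0011, and 11.8% of the lncRNA genes were lower and 46.1% higher. The 6 tested members are part of the 178, and 5 of them lay below the median of that class and MIR22HG above it.

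**Figure D5:**
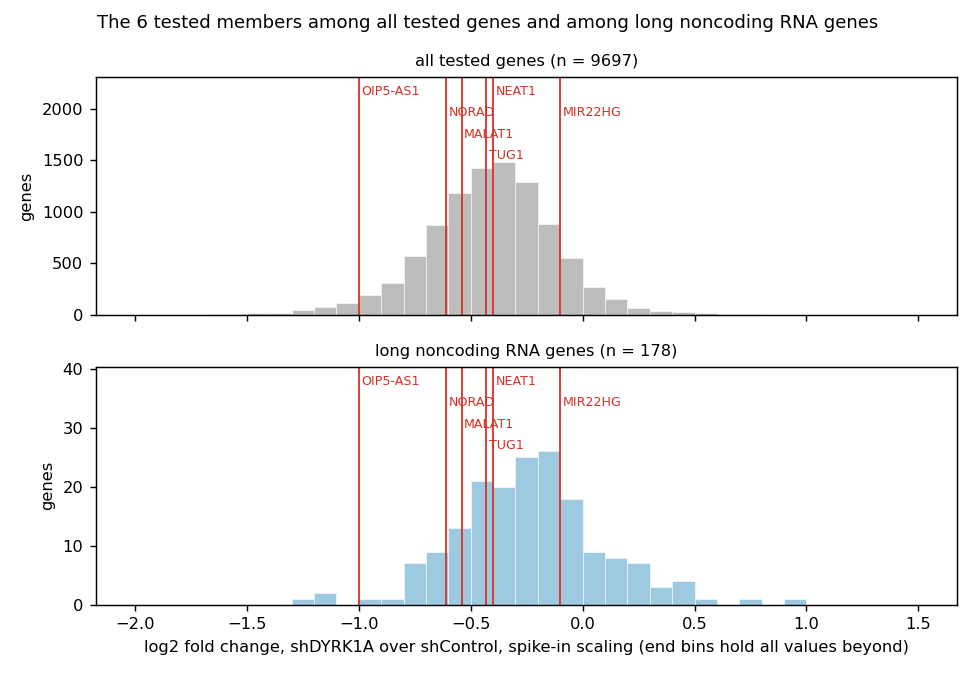
Number of genes by log2 fold change on the spike-in scale, in bins of 0.1, for all 9697 tested genes (top) and for the 178 tested lncRNA genes (bottom), with red lines at the 6 tested members. NEAT1 and TUG1 lie at the middle of all genes, OIP5-AS1 in the lower tail and MIR22HG in the upper part.

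Other lncRNAs gave a mixed account. Of 17 well known ones 10 were tested, of which 5 were lower and 2 higher, or 1 lower and 3 higher under TMM scaling. Over all tested genes 63.4% were lower and 1.08% higher, or 28.6% and 27.3% under TMM scaling. PVT1 was the lowest and passed the fold threshold (-0.74 ± 0.164, adjusted p = 3.84e-05, edgeR), as did 14.3% of all tested genes in a fall. LINC-PINT, a p53-induced lncRNA, was the highest (0.55 ± 0.163, adjusted p = 0.00187), with 480 ± 54.5 normalized counts in shControl and 704 ± 90.2 in shDYRK1A. TERC, RMRP and RPPH1, short RNAs that lack a poly(A) tail, had 0 counts in all libraries. Of 14 other microRNA hosts only 4 passed the filter, of which 1 was lower, MIR4435-2HG at -0.55 ± 0.143 (adjusted p = 0.000394), and the highest was MIR100HG at -0.20 ± 0.154 (adjusted p = 0.238). Under TMM scaling 0 of the 4 were lower and 1 higher, and the counts of these hosts are to be read against the same shares of all genes.

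Most messenger RNAs for the proteins of the nuclear bodies fell on the spike-in scale, as did most genes. Of 18 listed paraspeckle proteins 17 were tested, and 15 were lower and 0 higher, with a median of -0.45, beside 63.4% lower and a median of -0.40 over all tested genes. NUDT21, a subunit of the 3′ end cleavage factor that sets which NEAT1 form is made, was the lowest and alone passed the fold threshold (-0.74 ± 0.135, adjusted p = 4.97e-07), and SMARCA4 was the highest (-0.20 ± 0.136, adjusted p = 0.168). Of 15 genes for nuclear speckles and for processing of the MALAT1 end, 14 were lower and 0 higher, with a median of -0.53, to be read against the same share and median. RPP30, a subunit of RNase P, which cuts the MALAT1 3′ end, was the lowest (-0.70 ± 0.15, adjusted p = 1.95e-05) and just past the fold threshold, and RNPS1 was the highest (-0.28 ± 0.134, adjusted p = 0.0544). Under TMM scaling 6 were lower and 3 higher in the paraspeckle list (median -0.05) and 8 lower and 1 higher in the speckle list (median -0.12), beside 28.6% lower and 27.3% higher over all genes.

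Genes that lie beside the members were examined as a list of 14. Of the 11 tested, 5 were lower and 0 higher, with a median of -0.32, beside 63.4% lower and a median of -0.40 over all tested genes. EPB41L1, a cytoskeletal gene near NORAD, was the lowest and alone passed the fold threshold (-0.89 ± 0.14, adjusted p = 4.42e-09), and LTBP3, near MALAT1, was the highest (-0.13 ± 0.137, adjusted p = 0.374). The fold threshold was passed in a fall by 14.3% of all tested genes. Under TMM scaling 2 were lower and 4 higher, beside 28.6% lower and 27.3% higher over all genes.

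DYRK1A is known to occupy promoters that carry the palindrome TCTCGCGAGA. RefSeq promoters, from 250 bases before to 50 after the start, were at hand for 6 members (7 promoters, 2 of MALAT1), and none held the palindrome, which 0.424% of 35116 promoters hold. Its inner letters CTCGCGAG, searched after that result was seen, stood in the upstream MALAT1 promoter and in 1.02% of all promoters. Both searches took exact letters within this window, whereas the study scored matches to the motif by p-value and also listed poorly conserved ones. Weaker matches and matches outside the window were therefore not counted. Whether DYRK1A binds the member promoters was not tested. The palindrome reads the same on both strands. The match lies 84 bases before the start, and 44 bases around it are shown with the inner palindrome in capitals (GRCh38.p14, chr11:65497636-65497679, plus strand):
MALAT1 upstream promoter: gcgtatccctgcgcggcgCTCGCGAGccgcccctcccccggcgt

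The word TGAAGT was counted on the sense strand of each longest transcript. It stood 5 times in MIR17HG (1.76 per kb, a density above that of 99.5% of tested genes), 30 times in KCNQ1OT1, 6 times in NEAT1, 4 times each in MALAT1 and TUG1, 3 times in OIP5-AS1, 1 time in NORAD and 0 times in MIR22HG. Of the tested genes 67.83% held it, with a median of 0.303 per kb. OIP5-AS1, the member with the largest change, had 0.34 per kb.

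Over the 6 libraries, the gene whose log2 normalized counts were most like those of OIP5-AS1 was NUDT11 (Pearson r = 0.9999), followed for the other members by ZMYND8 for TUG1 (0.9998), GCC1 for NORAD (0.9997), DZIP1 for MALAT1 (0.9996), CCDC130 for NEAT1 (0.9978) and RABIF for MIR22HG (0.9915). All libraries share their spike-in factors across genes. The tested genes with r above 0.95 numbered 5248 for NORAD, 5093 for MALAT1, 4885 for TUG1 and 4332 for OIP5-AS1. They numbered 816 for NEAT1 and 33 for MIR22HG.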

How the data were processed

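Stranded, poly(A)-selected RNA-seq libraries of T98G cells (3 shControl, 3 shDYRK1A) were analysed, grouped by the sample titles. The authors deposited raw gene counts per library (58174 human gene identifiers, 0 fly rows) and a table of normalized signal for 23026 genes, which equals the counts divided by 1 constant per library, from the Drosophila spike-in according to the study's methods. STAR, DESeq2, hg38 and dm3 are named in the submitters' processing notes, and the annotation release is not given in the sources used here. GENCODE v29 coordinates equalled those of the deposited table for 95.83% of genes, and the starts of MALAT1 and TUG1 differed. Positions printed for the members are those of v29. The authors' table of DESeq2 comparisons (fold changes and p-values) was not used. No per-sample column was left unmatched (0).

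The 6 constants, from 0.821 to 1.21, scaled the counts in edgeR 4.0.16 (glmQLFit, glmQLFTest, robust; R 4.3.3). Genes above 10 CPM of mean normalized counts were tested (9697), with Benjamini-Hochberg adjustment over all of them, and called past 0.7 in log2 fold change (either way) with adjusted p under 0.05. SE is the fold change over the square root of F, and 95% intervals are the value ± 1.96 SE, an approximation. Under TMM scaling the p-values of the test are larger than these intervals imply, so the intervals are too narrow there. Members under the filter and shares were compared by two-sided exact permutation tests (Python 3.11.15, scipy 1.17.1). The steps were tested on simulated data, drawn gene by gene with the spike-in constants taken as exact. Error in these constants was therefore not covered. The letters 1A to 1C were not treated as pairs. Alternatives were TMM, median-of-ratios scaling, DESeq2 1.42.0, filterByExpr, a minimum of 1 count, the letter as a block, fits without each library, and, for shares, other denominators. The rule for named genes took all 8 members, DYRK1A, the lowest, highest and called genes of each list, and the gene most like each tested member. PUM2, ELAVL1, MORC2, OIP5, WDR81, KCNQ1, CDKN1C, TERC, RMRP, RPPH1, LNPEP and MRPL50 were named in addition, after their values were seen. A further gene that the rule names, and the counts of its list, are not reported here. Members and lists were chosen with earlier results of these data known. The depth of each library sets the precision, and without molecular identifiers reads can repeat a molecule.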

Additional observations from a re-analysis of the deposited data

How the results depend on the processing

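Scaling to the human genes changed several counts. The count of members lower at an adjusted p below 0.05 was 5 on the spike-in scale and 3 with TMM or median-of-ratios scaling, where the genes lower were 2769 and 2719 of 9697 rather than 6145, and those past the fold threshold 187 and 184 rather than 1386. Members past the fold threshold were 1 in the main analysis, 0 with either human scaling, 2 with filterByExpr or a minimum of 1 count, and 5 with no fold threshold, and genes past it in the direction of a fall were 2492 and 2468 under these filters. MIR22HG reversed to 0.32 with TMM and 0.32 with median-of-ratios scaling, and with a library left out it ranged from -0.23 to 0.01, the latter without shControl 1A. With a library left out, members past the fold threshold numbered 1 to 2, members lower 4 to 5, genes past the fold threshold 920 to 2098 and genes lower 3979 to 7549, the extremes being without shDYRK1A 1B and 1A for the former and without shControl 1A and 1C for the latter. The cause was not tested. With the replicate block, 5 members were lower and 1 passed the fold threshold, and 5911 genes were lower. The same letters correlated at 0.151, 0.0729 and 0.128 and each library correlated best with its own letter, a hint from the data and not from the design, and with the block no member moved across either threshold. The inner palindrome, added after seeing the data, was in 1 member promoter and the whole palindrome in 0. The share of human counts held by the members kept its direction under each alternative, from -0.0162 to -0.00172 percentage points. The exact permutation p ran from 0.1 without NEAT1 to 0.8 without shDYRK1A 1B or 1C, and none of these tests could reach 0.05. Among the other values of single members, 76 kept their direction and side of the threshold. A further 8 were no longer past the test's threshold of 0.05 (6 of NEAT1 and 2 of TUG1). Another 3 came past it (2 of KCNQ1OT1 and 1 of MIR17HG), with edgeR under a wider filter in place of the permutation test. The 76 include permutation tests of KCNQ1OT1 and MIR17HG whose smallest possible p was 0.1, or 0.2 with a library left out. Their side of the threshold was fixed in advance. The fold threshold as well was missed by OIP5-AS1 with both human scalings (-0.60) and reached by NORAD without shControl 1C or shDYRK1A 1A (-0.71). Depth limits MIR17HG and KCNQ1OT1.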
